A study of Homo sapiens with 10 samples.

Results

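Interferon-stimulated and RNA-sensing genes were described here as 9 genes out of the 78894 gene IDs in the deposited table: IFIT1, IFIT2, IFIT3, ISG15, IFI6, MX1, OAS1, OAS3 and IFIH1. They were chosen by name, as genes that interferon induces in most human cells, and were found through their Ensembl IDs in GENCODE 44. The libraries came from HEK293T, an embryonic kidney cell line that carries the SV40 large T antigen and is known for weak signalling through the cGAS-STING DNA-sensing pathway. Cells were kept for 24 h in medium without cysteine (labelled 0X, 2 libraries, called cysteine-free), in complete medium (1X, 4 libraries) or in medium with 10 times the complete amount (10X, 4 libraries, called excess cysteine), with no other agent or genotype. Poly(A) RNA was sequenced, and the labels call the libraries of a group biological replicates of this single cell line.

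As background, cells detect double-stranded RNA in the cytosol through RIG-I and MDA5, which signal through MAVS on the mitochondrial surface to the kinases TBK1 and IKK-epsilon and to the factor IRF3. Type I interferon made in response binds its receptor and activates a complex that includes STAT2 and IRF9, which binds the interferon-stimulated response element (ISRE) and switches on interferon-stimulated genes. Double-stranded RNA that leaks from mitochondria is one known trigger of MDA5, which raises the question addressed here, whether a change in mitochondrial RNA came with an interferon response.

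Of the 9 genes, 8 passed the filter on low values (10 or more normalized counts in at least 3 of the 10 libraries) and OAS1 did not. In excess cysteine, IFIT1, IFIT2 and IFI6 fell and ISG15 rose against complete medium, while mitochondrial genes took a 36.4-fold smaller share of the reads. In cysteine-free medium OAS3 was the only one of the 8 that passed the test, and it rose. The called genes thus moved in both directions in excess cysteine, and the summed normalized count of all 9 was 899 ± 30.8 (SD, n = 4) in excess cysteine, 1030 ± 46.0 (n = 4) in complete medium and 1051 ± 18.1 (n = 2) in cysteine-free medium.

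The promoters of the 4 genes IFIT1, ISG15, IFI6 and OAS3 are shown because they are known to answer to the same factor and yet moved in different directions in these data. Each run is a RefSeq window of 300 bases on GRCh38.p14, from 250 bases before to 50 bases after the annotated start, read 5′ to 3′ on the strand of the gene. Capitals mark the ISRE letters GAAANNGAAA on either strand, where adjacent matches can overlap.
IFIT1: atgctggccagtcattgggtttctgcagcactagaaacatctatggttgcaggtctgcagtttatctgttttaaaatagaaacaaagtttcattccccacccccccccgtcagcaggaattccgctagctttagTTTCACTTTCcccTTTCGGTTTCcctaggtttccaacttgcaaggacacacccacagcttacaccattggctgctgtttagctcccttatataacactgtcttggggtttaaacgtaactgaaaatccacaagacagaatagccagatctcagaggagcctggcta
ISG15: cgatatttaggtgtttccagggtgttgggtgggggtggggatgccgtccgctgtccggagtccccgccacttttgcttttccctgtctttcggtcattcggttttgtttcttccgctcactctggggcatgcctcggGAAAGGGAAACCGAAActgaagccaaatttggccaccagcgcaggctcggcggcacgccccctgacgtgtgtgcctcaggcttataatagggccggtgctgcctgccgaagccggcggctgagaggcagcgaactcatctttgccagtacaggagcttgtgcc
IFI6: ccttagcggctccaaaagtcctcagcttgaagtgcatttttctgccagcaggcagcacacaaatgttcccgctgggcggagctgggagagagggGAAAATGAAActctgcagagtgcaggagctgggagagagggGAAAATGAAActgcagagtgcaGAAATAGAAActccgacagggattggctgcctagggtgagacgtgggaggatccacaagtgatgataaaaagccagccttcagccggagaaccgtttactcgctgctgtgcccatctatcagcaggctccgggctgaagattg
OAS3: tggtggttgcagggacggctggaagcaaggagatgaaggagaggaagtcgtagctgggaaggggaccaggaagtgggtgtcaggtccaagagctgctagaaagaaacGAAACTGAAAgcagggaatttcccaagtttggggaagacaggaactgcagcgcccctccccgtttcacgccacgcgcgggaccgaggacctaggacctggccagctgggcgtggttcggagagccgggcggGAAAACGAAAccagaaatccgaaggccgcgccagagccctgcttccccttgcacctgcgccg

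The IFIT1 window lies at chr10:89392373-89392672 on the plus strand and holds 2 matches, with 106 and 93 bases between each match and the start. That of ISG15 at chr1:1013247-1013546, also on the plus strand, holds 2 overlapping matches, at distances of 103 and 97 bases. IFI6, on the minus strand at chr1:27672143-27672442, holds 3 matches, at 146, 105 and 83 bases. The OAS3 window at chr12:112938224-112938523 on the plus strand holds 2, at 133 and 2 bases. Among all 35116 promoter windows of this length, 3.57% hold at least 1 such match. Of the other members, IFIH1 has 3 matches and IFIT3 has 2 in each of its 2 windows, MX1 has 1 in 2 of its 3 windows, and OAS1 has none. A match is only a run of letters and does not show that a factor binds there.

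**Figure D1:**
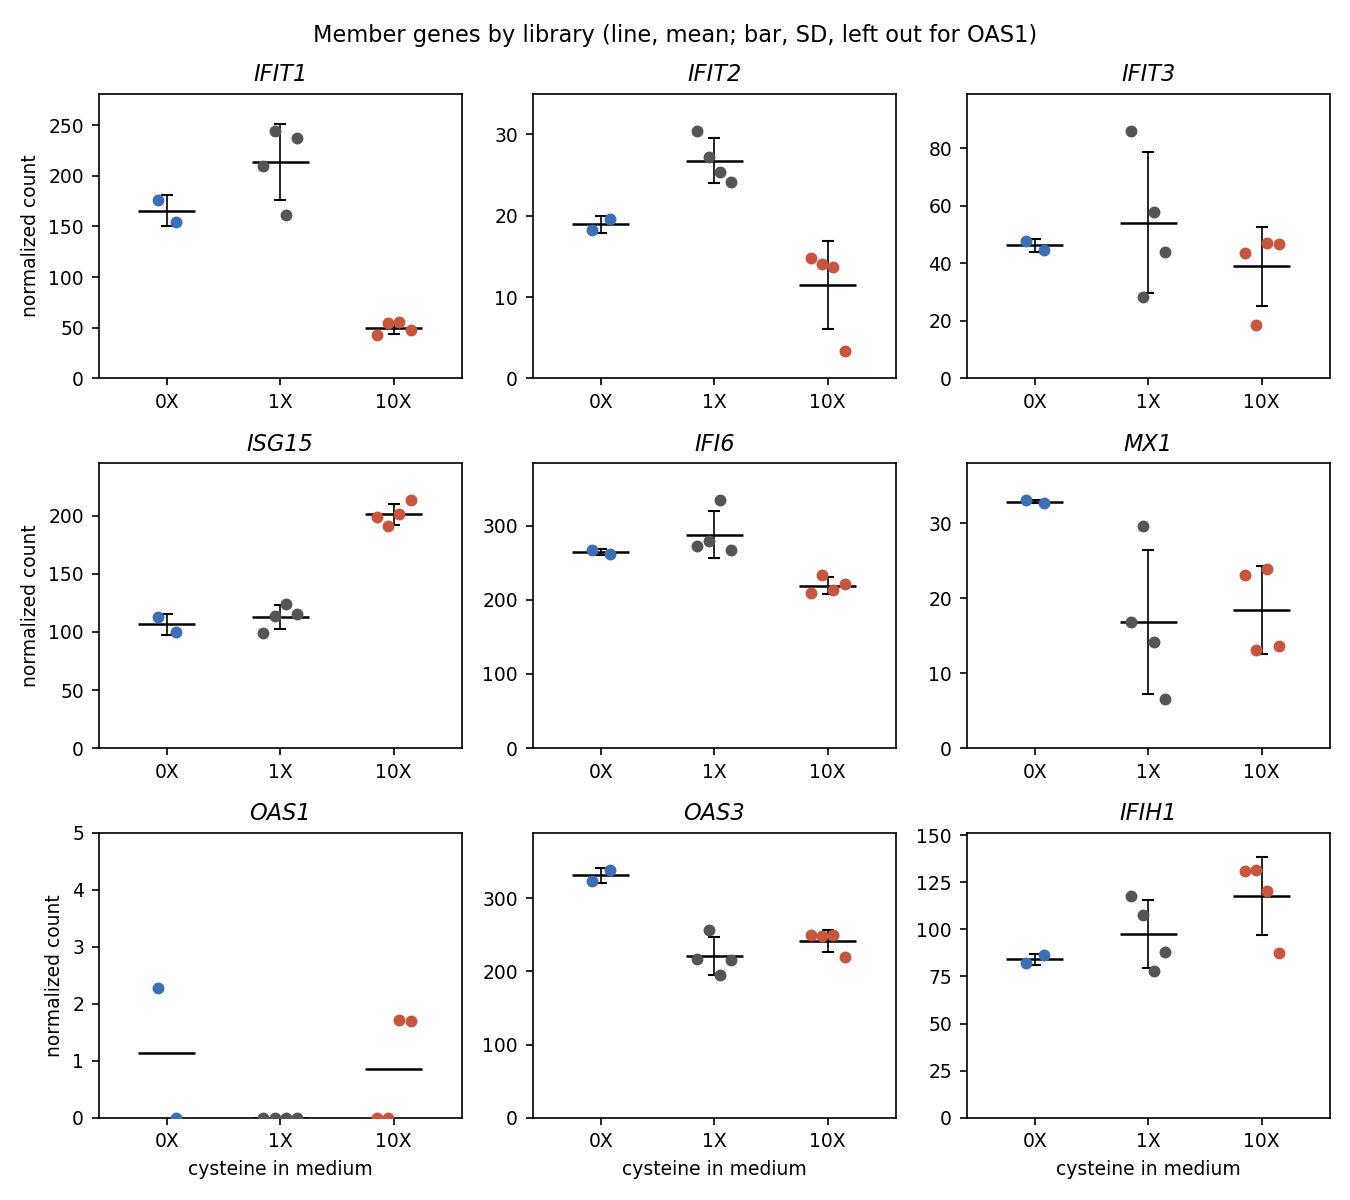
Normalized counts (vertical axis) of the 9 member genes in every library, by cysteine in the medium (0X, cysteine-free, 2 libraries; 1X, complete, 4 libraries; 10X, excess, 4 libraries). Points are libraries, lines are means and bars are SD, which is left out for OAS1. The excess libraries of IFIT1 sit between 42.4 and 55.5, below all others, and those of ISG15 sit between 191 and 213, above all others.

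IFIT1, IFIT2 and IFIT3 encode proteins with tetratricopeptide repeats, of which IFIT1 binds RNA that lacks a normal cap methylation. IFIT1 (GRCh38 chr10:89392546-89406487, plus strand) had normalized counts of 177 and 155 in the cysteine-free libraries. In complete medium the 4 libraries gave 210, 245, 161 and 237, and in excess cysteine 42.4, 54.3, 55.5 and 47.6. The excess libraries lay below every other library, whereas the cysteine-free and complete libraries overlapped.

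The mean of IFIT1 fell from 213 ± 37.6 (SD, n = 4) in complete medium to 49.9 ± 6.13 (n = 4) in excess cysteine. On the log2(normalized count + 1) scale this was a change of -2.06 ± 0.16 (SE), with a 95% interval from -2.39 to -1.73 and a Benjamini-Hochberg adjusted p of 6.4e-09 in limma. In cysteine-free medium the mean was 166 ± 15.3 (n = 2), a log2 difference of -0.35 from complete medium that did not pass the test (adjusted p = 0.16, limma). Over 20 other settings, which included leaving out each library, the excess change stayed between -2.19 and -1.89 and passed every time.

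IFIT2 (chr10:89283694-89309271) had values of 18.2 and 19.6 in cysteine-free medium and of 30.5, 27.2, 25.4 and 24.1 in complete medium. In excess cysteine it had 14.8, 14.1, 13.7 and 3.40. Both other media lay below complete medium without overlap, and a single excess library was far below the rest. IFIT2 fell in excess cysteine by 1.31 ± 0.39 (SE) on the log2 scale, from a mean of 26.8 ± 2.75 to 11.5 ± 5.41 (n = 4 each, adjusted p = 8.1e-03, limma). Without excess replicate 4 the difference was -0.87 and no longer passed (adjusted p = 0.0176, limma), and leaving out complete replicate 1, 2, 3 or 4 gave -1.25, -1.31, -1.34 and -1.36, with adjusted p of 0.0271, 0.0199, 0.0103 and 0.0109 in limma. The exons of IFIT2 share 65 bases with LIPA on the other strand, a lysosomal lipase gene whose own mean went from 4163 to 2937. They share 524 bases (12.1%) with an unnamed gene on the same strand. The means of that gene were 16.2 in cysteine-free, 8.74 in complete and 6.285 in excess medium. The part of these overlaps in the IFIT2 count was not tested.

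IFIT3 (chr10:89327307-89377473) had 47.8 and 44.7 in cysteine-free medium, 86.1, 28.4, 57.9 and 43.9 in complete medium and 43.7, 18.5, 46.9 and 46.7 in excess cysteine. The 3 groups overlapped, and the spread within complete medium (54.1 ± 24.5, n = 4) covered both other means. Neither the difference of -0.44 in excess cysteine (95% interval from -1.14 to 0.26, adjusted p = 0.27) nor that of -0.11 in cysteine-free medium (adjusted p = 0.85) passed limma. Of the IFIT3 exon bases, 94 are shared with LIPA on the other strand.

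ISG15 encodes a ubiquitin-like protein that is joined to other proteins after interferon treatment and is also secreted. At chr1:1001138-1014540 it had normalized counts of 113 and 100.3 in cysteine-free medium, and of 98.7, 114, 124 and 115 in complete medium. The excess libraries had 199, 191, 201 and 213 and lay above all of the other 6. Its mean rose from 113 ± 10.4 to 201 ± 9.13 (n = 4 each), a log2 change of 0.83 ± 0.11 (SE) with an interval from 0.60 to 1.07 (adjusted p = 6.6e-06, limma). In cysteine-free medium ISG15 stood at 107 ± 8.78 (n = 2), -0.08 from complete medium with an interval from -0.46 to 0.30 (adjusted p = 0.77, limma). The rise in excess cysteine was between 0.77 and 0.94 in 20 other settings and passed in each of them. ISG15 and IFIT1, both known as early and strong responders to interferon, thus moved in opposite directions in the same 4 libraries. ISG15 shares 36 exon bases with an unnamed gene on the other strand, whose mean was 26.1 in complete and 45.4 in excess medium.

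IFI6 encodes a small membrane protein of the endoplasmic reticulum that restricts flaviviruses, and lies at chr1:27666064-27672212 on the minus strand. It had 268 and 262 in cysteine-free medium, 272, 279, 334 and 267 in complete medium and 209, 234, 213 and 222 in excess cysteine. The excess libraries lay below all others, by a smaller distance than for IFIT1. The fall from 288 ± 31.1 to 219 ± 11.1 (n = 4 each) was a log2 change of -0.39 ± 0.10 (SE), with an adjusted p of 2.5e-03 in limma. It did not pass without excess replicate 1 (-0.37, adjusted p = 0.0102, limma), nor when every library was scaled to the same total (-0.28, adjusted p = 0.0193, limma). Of the IFI6 exon bases, 23.1% are shared with LINC02574 on the same strand, whose mean was 63.8 in complete and 53.7 in excess medium.

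MX1 encodes a dynamin-like GTPase that blocks influenza and other viruses, and its level was low throughout. At chr21:41420020-41470071 it had 33.0 and 32.7 in cysteine-free medium, 16.8, 29.6, 14.2 and 6.58 in complete medium and 23.1, 13.04, 23.9 and 13.6 in excess cysteine. The pair of cysteine-free values lay above all other libraries. The log2 difference from complete medium was 1.10 in cysteine-free medium (95% interval from 0.05 to 2.14, adjusted p = 0.11) and 0.24 in excess cysteine (adjusted p = 0.63), and limma called neither. The latter was -0.11 without complete replicate 4.

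OAS1 and OAS3 make 2′-5′ oligoadenylates when they bind double-stranded RNA. OAS3 (chr12:112938051-112976460) had 323 and 338 in cysteine-free medium, 216, 257, 195 and 215 in complete medium and 249.7, 248, 249 and 219 in excess cysteine. The cysteine-free libraries lay above all others, and the complete and excess libraries overlapped. OAS3 rose in cysteine-free medium from 221 ± 26.0 (n = 4) to 331 ± 10.3 (n = 2), a log2 change of 0.59 ± 0.13 (SE) with an adjusted p of 5.4e-03 in limma. It did not pass without cysteine-free replicate 1 (0.62, adjusted p = 0.0516), without cysteine-free replicate 2 (0.56, 0.0799) or without complete replicate 1 (0.58, 0.0195), all by limma. In excess cysteine its mean was 242 ± 14.9 (n = 4), 0.13 from complete medium with an interval from -0.08 to 0.35 (adjusted p = 0.28, limma). OAS1 (chr12:112905856-112933219), whose gene lies beside that of OAS3, had 2 reads in cysteine-free replicate 1, 2 in each of excess replicates 3 and 4, and none in the other 7 libraries. A count of 0 allows an expected count of up to 3 reads. No fold change was computed for OAS1.

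IFIH1 encodes MDA5, the sensor of long double-stranded RNA. At chr2:162267074-162318684 on the minus strand, it had 82.0 and 86.2 in cysteine-free medium, 118, 107, 78.2 and 87.8 in complete medium and 131, 131, 120.3 and 87.5 in excess cysteine. Complete libraries overlapped with both other groups. Its means were 84.1 ± 2.94 (n = 2), 97.8 ± 18.0 (n = 4) and 118 ± 20.7 (n = 4), and its log2 differences from complete medium were -0.20 (adjusted p = 0.52) and 0.26 (interval from -0.09 to 0.61, adjusted p = 0.19) by limma.

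**Figure D2:**
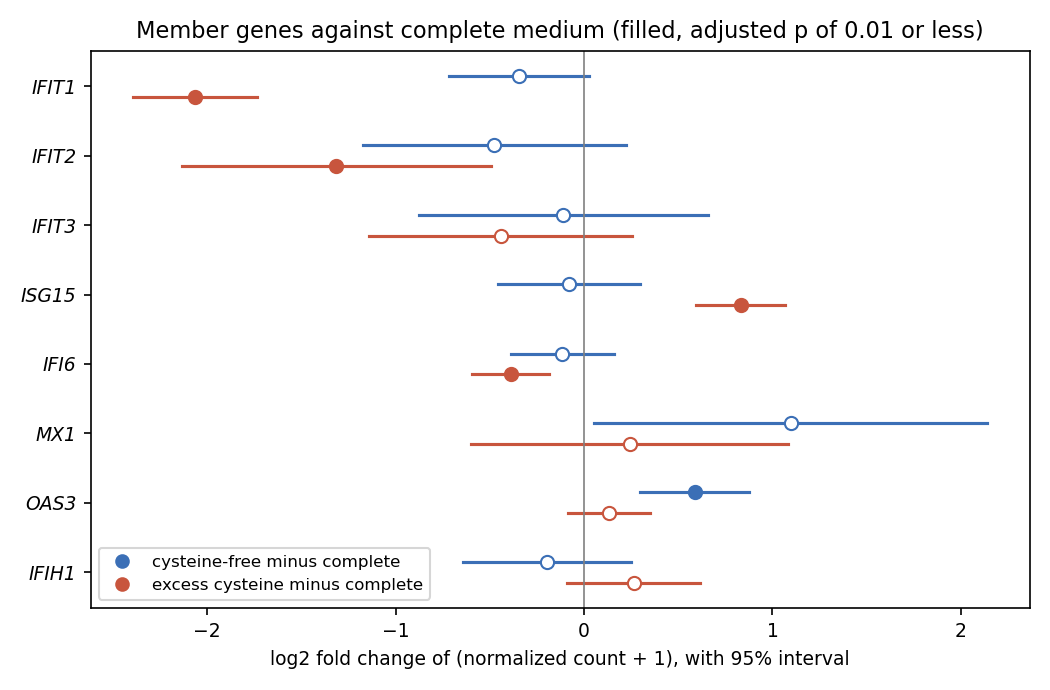
Log2 fold change of normalized count + 1 against complete medium (horizontal axis) for the 8 tested members, in cysteine-free medium (blue) and excess cysteine (red). Points are limma estimates, lines are 95% intervals, and filled points passed at an adjusted p of 0.01 or less. IFIT1 at -2.06 and ISG15 at 0.83 lie on opposite sides of 0 in excess cysteine.

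Read per length, as reads per kilobase of exon scaled for library total (RPKM), the levels in complete medium ran from IFI6 (7.10 ± 0.773, SD, n = 4) through ISG15 (3.01 ± 0.313), IFIT1 (1.07 ± 0.196), IFIH1 (0.431 ± 0.0746), OAS3 (0.283 ± 0.0346), IFIT3 (0.245 ± 0.107) and IFIT2 (0.143 ± 0.0123) to MX1 (0.0215 ± 0.0124), with OAS1 at 0 reads. OAS3 and IFIT3, and IFIT3 and IFIT2, did not differ beyond their spread, and the other neighbours from IFI6 to MX1 did. The length is the union of all annotated exons, 18045 bases for OAS3 and 17984 for MX1 against 5225 for IFIH1. The order depends on this length, and the spread between libraries does not cover it. In excess cysteine, ISG15 (5.76 ± 0.236) and IFI6 (5.81 ± 0.256) stood level on the same scale, and IFIT1 (0.269 ± 0.0316) stood below IFIH1 (0.560 ± 0.103) and OAS3 (0.332 ± 0.0234).

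Counted over the comparison of excess cysteine with complete medium, limma called 1 of the 8 tested members higher and 3 lower, with an adjusted p of 0.01 as the limit, and 4 were not called. Among all 29045 genes tested, 23.1% were called higher and 22.9% lower in that comparison. The members' median log2 difference was -0.13, against 0.01 over all genes tested. Against shares of all genes this large, 4 called of 8 is near the background, and as a list the 8 genes did not stand apart in this comparison.

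In cysteine-free against complete medium, 1 of 8 was called higher and 0 lower, with 7.39% of all genes called higher and 8.51% lower. The count of 0 lower genes held in edgeR and DESeq2 as well, and 2 of the 8 members had an unadjusted p under 0.05 in limma. The median log2 difference of the members was -0.11, against 0.00 over all genes. The number of members called was thus at the background share in this medium too.

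Excess cysteine was also set against cysteine-free medium, a comparison that uses the same libraries as the other pair and is no separate support for either. ISG15 was again higher (0.91 ± 0.13, adjusted p = 1.3e-06) and IFIT1 lower (-1.72 ± 0.19, adjusted p = 3.1e-08), and OAS3 was lower (-0.45 ± 0.10, adjusted p = 5.7e-04), by limma with SE. Without cysteine-free replicate 2 the OAS3 difference was -0.42 and did not pass (adjusted p = 0.0108, limma). This gave 1 member higher and 2 lower of 8, where 24.4% of all genes were called higher and 23.6% lower. IFIH1 was 0.46 higher in excess cysteine (adjusted p = 0.028, limma), and 0.60 higher without excess replicate 4, where it passed (adjusted p = 3.8e-03, limma).

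Mitochondrial RNA, the other side of the question, was measured as the share of reads on the 37 genes of mitochondrial DNA. It was 5.43% ± 0.397 (SD, n = 2) in cysteine-free medium, 4.71% ± 0.250 (n = 4) in complete medium and 0.129% ± 0.0130 (n = 4) in excess cysteine. The excess and complete libraries did not overlap, and the 2-sided exact permutation p of 0.029 is the smallest that 4 libraries against 4 allow. For cysteine-free against complete medium the exact permutation p was 0.067, the smallest for 2 against 4. In excess cysteine all 13 mRNAs of mitochondrial DNA were called lower, the median change being -7.23 on the log2 scale, and 5 of 13 rose in cysteine-free medium, among them MT-CO1 by 0.49. Over all genes 22.9% were called lower in the former and 7.39% higher in the latter. In bulk RNA, fewer transcripts per cell and fewer cells that carry them cannot be told apart.

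**Figure D3:**
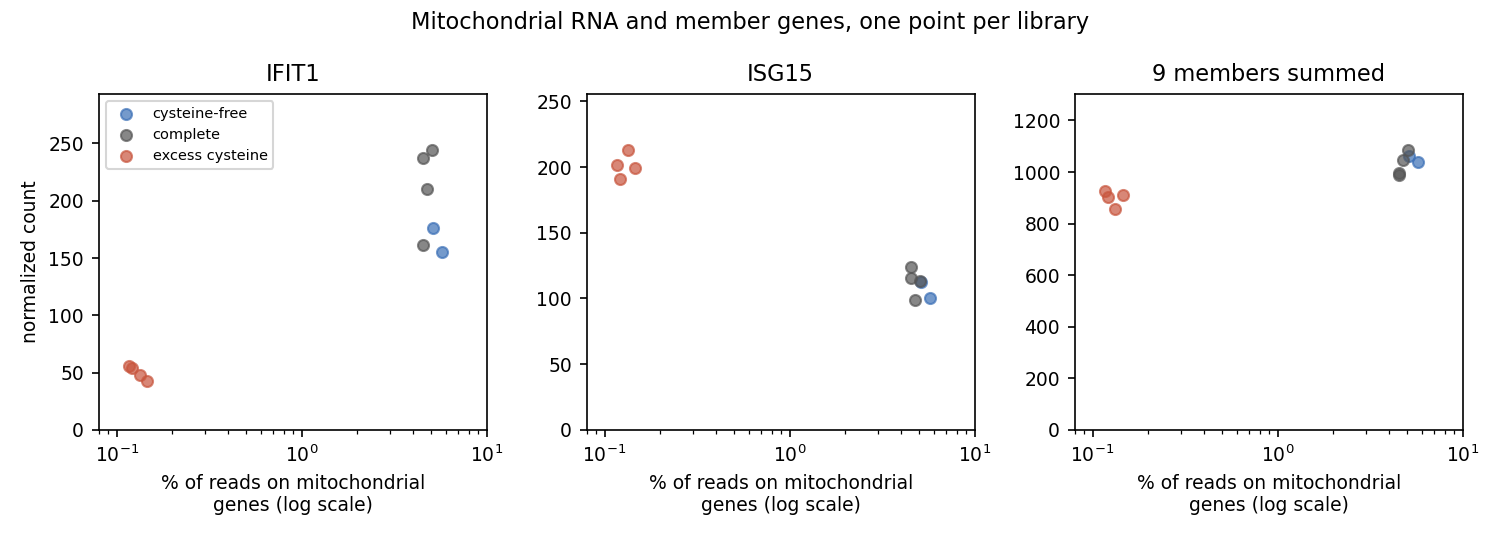
Share of reads on mitochondrial genes in percent (horizontal log axis) against the normalized count (vertical axis) of IFIT1, ISG15 and all 9 members summed, with 1 point per library. The libraries form 2 clusters, with excess cysteine (red) at a mean of 0.129% and complete (grey) and cysteine-free (blue) libraries at means of 4.71% and 5.43%; IFIT1 and the sum are lower and ISG15 higher in the first cluster.

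The libraries fell into separate clusters by mitochondrial share, and a relation between this share and a member's level within a medium was not tested. What can be said is that the medium with the lowest mitochondrial share was the one in which IFIT1, IFIT2 and IFI6 were lowest and ISG15 was highest. The interferon genes themselves were near or at 0. IFNB1, the gene of interferon beta, had 0 reads in all 6 cysteine-free and complete libraries, and 2, 0, 7 and 4 reads in the excess libraries. A count of 0 allows an expected count of up to 3 reads a library. Of 12 interferon genes listed, IFNE alone passed the filter. It encodes interferon epsilon, was picked out after its values were seen, and had 4 and 6 reads in cysteine-free, 0, 0, 2 and 2 in complete and 20, 10, 15 and 16 in excess libraries. It passed only through the excess libraries, and no test of it is given.

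Beyond the 9, a list of 58 other interferon-stimulated genes had 42 that passed the filter. In excess cysteine 17 of these rose, 6 fell and 19 were not called, where 23.1% of all genes were called higher and 22.9% lower, and their median log2 difference was 0.25 against 0.01 over all genes. Those with the largest changes were LAMP3, a lysosomal membrane protein (2.83 ± 0.10, SE, from 90.9 to 649 normalized counts), TRIM22 (2.12, from 7.09 to 29.6), SLFN5 (1.84 ± 0.08, from 287 to 1026), the retroviral restriction factor TRIM5 (1.76 ± 0.07, from 440 to 1493) and IFI27 (1.26 ± 0.17, from 70.4 to 167). In each of these 5 the excess libraries lay above all complete libraries. The 5 were picked by the size of their called change in this comparison, so this is no separate support. TRIM22 would not have passed the filter on low values without the excess libraries, where it is high, so its call is no support. Of the 40 genes that would have, 16 rose, 6 fell and 18 were not called, beside the same 23.1% and 22.9% of all genes. Scaled to equal totals, 3 of the list fell in place of 6. Of the 58 genes, 16 did not pass the filter, among them CXCL10, RSAD2, OAS2, CMPK2, XAF1 and IFI44, which are typical of an interferon response in other cells. Others of the list, such as IFI27, USP18 and IRF7, passed. Over all 78894 gene IDs, 29045 passed.

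In cysteine-free medium 3 of the 42 rose, 6 fell and 33 were not called, beside 7.39% higher and 8.51% lower over all genes, with a median of 0.04. IFI44L fell by 1.66 ± 0.38 (SE), from a mean of 44.01 to 13.3, and HELZ2, a helicase, fell by 0.51 ± 0.09. DDX60, a helicase that aids RIG-I (0.69 ± 0.15), SLFN5 (0.66 ± 0.13) and the membrane restriction factor IFITM3 (0.52 ± 0.11) rose, the last of which has near-identical paralogs that can share reads. These calls rest on 2 cysteine-free libraries: with only replicate 2 kept, 0 of the list rose and 1 fell, and with only replicate 1, 0 rose and 0 fell, although DDX60 was at 0.74 and 0.64 and IFITM3 at 0.50 and 0.55 in those fits. Wherever 1 cysteine-free library is left, limma takes its spread from the complete libraries and the lone library is assumed to vary like them. Without complete replicate 1 the counts were 1 and 2, and without complete replicate 2 they were 1 and 1.

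**Figure D4:**
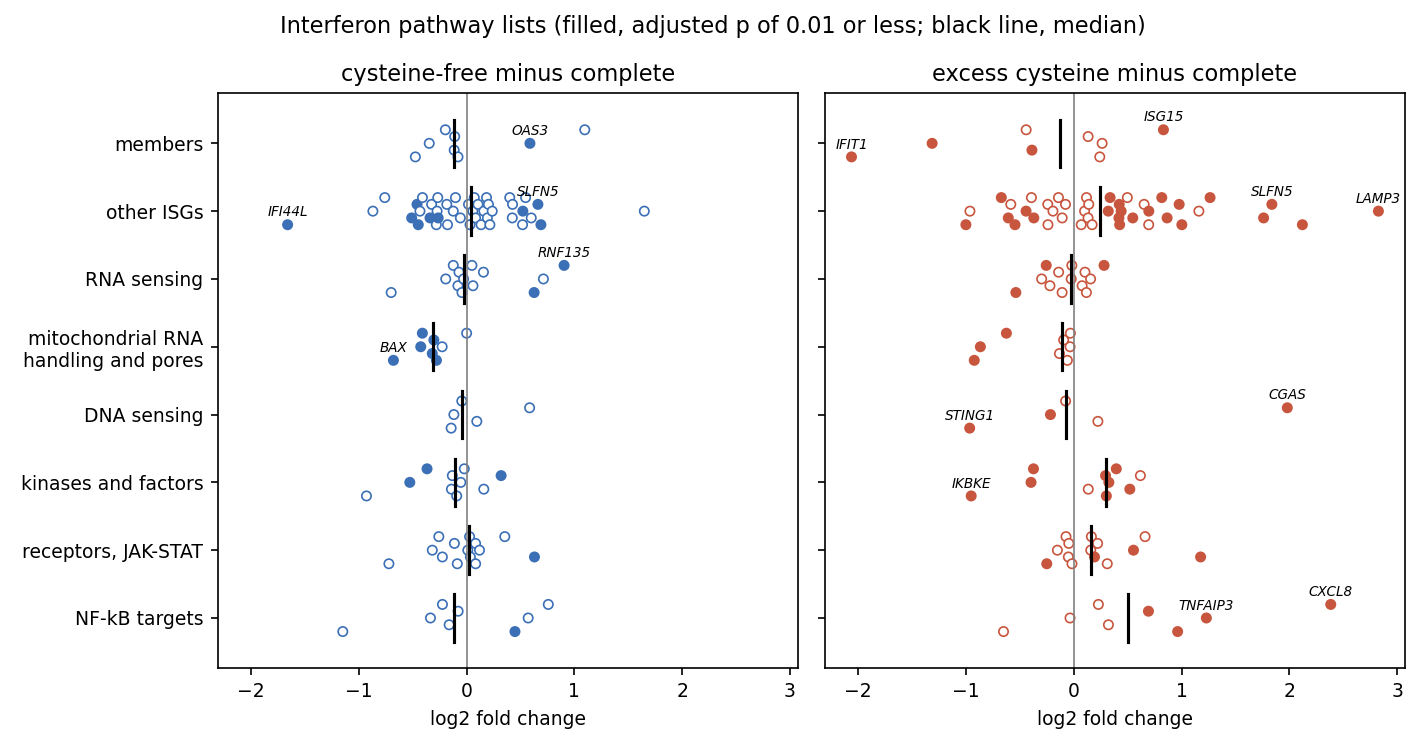
Log2 fold change against complete medium (horizontal axis) of the tested genes of 8 lists, in cysteine-free medium (left) and excess cysteine (right). Points are genes, filled where limma gave an adjusted p of 0.01 or less, and black lines are list medians. In excess cysteine the other interferon-stimulated genes have a median of 0.25 and reach 2.83 at LAMP3, while the members have a median of -0.13.

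Among 13 tested genes of RNA sensing, 1 was called higher and 2 lower in excess cysteine, beside 23.1% and 22.9% of all genes. EIF2AK2, the kinase PKR, rose by 0.28 ± 0.05 and MAVS, the adaptor of MDA5, fell by 0.26 ± 0.05 (SE, on the log2 scale). RIGI, the sensor that shares MAVS with MDA5, had 204 ± 30.5 in complete and 215 ± 29.5 in excess medium (n = 4 each, adjusted p = 0.62, limma), and 43.2% of its exon bases are shared with another gene on its strand. In cysteine-free medium RNF135, a ubiquitin ligase of RIG-I, rose by 0.90 ± 0.12 and NLRX1, a mitochondrial regulator of MAVS, rose by 0.63 ± 0.10. They were 2 higher of 13 tested, beside 7.39% of all genes. NLRX1 was not called with cysteine-free replicate 1 or 2 left out. RNF135 kept its call when any 1 library was left out, but not without the filter on low values (adjusted p = 0.026, limma).

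The list of 8 genes that handle mitochondrial RNA or form pores of the mitochondrial outer membrane had 6 lower in cysteine-free and 3 lower in excess medium, and none higher, where 8.51% and 22.9% of all genes were called lower. PNPT1, the RNA-degrading enzyme whose loss lets mitochondrial double-stranded RNA accumulate, fell by 0.63 ± 0.04 in excess cysteine, from 3665 to 2375, and by 0.30 ± 0.06 in cysteine-free medium. The channels VDAC1 and VDAC3 fell by 0.92 ± 0.05 and 0.87 ± 0.04 in excess cysteine. BAX and BAK1, which form pores during cell death, fell in cysteine-free medium by 0.68 ± 0.14 and 0.43 ± 0.07. DESeq2 on recovered reads did not call BAX in that medium (-0.70, adjusted p = 0.0135, DESeq2). With cysteine-free replicate 1 or 2 left out, 0 of the 8 were called in that medium, although BAX was at -0.71 and -0.64 and PNPT1 at -0.28 and -0.33.

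Of the DNA-sensing genes, 4 passed the filter on low values without the excess libraries, and 2 of these were called lower in excess cysteine, beside 22.9% of all genes. CGAS, the sensor of cytosolic DNA, had 4.20, 17.3, 6.09 and 11.0 in complete and 39.8, 28.2, 34.1 and 45.9 in excess libraries, a log2 difference of 1.98 in the means of the fit. It is not among those 4, and no test of it is given. STING1, its downstream adaptor, had 86.1, 90.2, 144 and 103 in complete and 48.8, 51.1, 62.3 and 49.3 in excess libraries, a change of -0.97 ± 0.18 (adjusted p = 1.9e-04, limma). The STING1 values of the excess libraries lay below those of all complete libraries. ENPP1, which breaks down the messenger that CGAS makes, was the other gene called lower (-0.22 ± 0.06, adjusted p = 4.4e-03, limma), and it was not called at equal totals (-0.11), under quantile normalization (-0.17), without the filter, or without complete replicate 1 (-0.19) or 2 (-0.22) or excess replicate 1 (-0.17) or 4 (-0.21). In cysteine-free medium STING1 was 0.58 higher and not called (adjusted p = 0.0521, limma), but it was called without complete replicate 3 (0.74, adjusted p = 4.4e-03, limma) and with replicate number as a block (0.82, adjusted p = 1.1e-03, limma).

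Of 10 kinases and factors downstream of the sensors, 5 rose and 3 fell in excess cysteine, beside 23.1% and 22.9% of all genes. IKBKE (-0.95 ± 0.11), IRF3 (-0.40 ± 0.06) and TBK1 (-0.37 ± 0.07) were the 3 that fell, while IKBKG (0.52 ± 0.05) and TRAF3 (0.39 ± 0.05) rose. In cysteine-free medium 1 of the 10 rose and 2 fell, beside 7.39% and 8.51% of all genes: TRAF3 rose (0.32 ± 0.06), and TBK1 (-0.53 ± 0.10) and IKBKG (-0.37 ± 0.07) fell. None of these 3 was called with cysteine-free replicate 1 or 2 left out, nor TRAF3 without complete replicate 2. Of 14 genes of interferon receptors and JAK-STAT signalling, 3 rose and 1 fell in excess cysteine, beside 23.1% and 22.9% of all genes. Those that rose were SOCS1, an inhibitor of JAK kinases (1.18 ± 0.29), the lambda receptor chain IFNLR1 (0.55 ± 0.07) and JAK1 (0.19 ± 0.04). The rise of SOCS1 did not pass without excess replicate 1 (1.12, adjusted p = 0.0103) or 4 (1.10, adjusted p = 0.0109), both by limma. Scaled to equal totals, 6 of this list rose, where 13606 of all genes tested were called and 61.8% of those were higher. In cysteine-free medium STAT2 alone of the 14 was called, higher by 0.63 ± 0.11, beside 7.39% higher and 8.51% lower over all genes. It was not called with cysteine-free replicate 1 or 2 left out, at 0.66 and 0.60.

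NF-kB acts with IRF3 on the IFNB1 gene, and of 12 of its known targets 8 were tested. Of these, 6 would have passed the filter without the excess libraries, and 3 of the 6 were called higher in excess cysteine, where 23.1% of all genes were: TNFAIP3 (1.23 ± 0.08, from 257 to 604), NFKB2 (0.96 ± 0.06) and RELB (0.69 ± 0.13). CXCL8, a chemokine that is not among the 6, had a mean of 4.87 in complete and 24.0 in excess medium. In cysteine-free medium 1 of the 8 tested was called higher and 0 lower, beside 7.39% and 8.51% of all genes. It was NFKBIA, which rose by 0.45 ± 0.09, and did not pass with cysteine-free replicate 1 or 2 left out, at 0.51 and 0.39. Each of these values is a log2 difference from complete medium, with its SE where one is given.

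The genes whose profile was most like that of the members were found by Pearson's r over the 10 libraries with the mean profile of the 8 tested members, among 14547 genes with a symbol and a mean of 100 or more. They were DHRS4L1 (r = 0.931), USP54 (0.916), PRRT2 (0.909), POLE2 (0.907) and SPOCK1 (0.904). All 5 had their lowest mean in excess cysteine, such as 44.5 for SPOCK1 against 143 in complete medium. These r values describe 10 libraries in 3 media and carry no test.

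Over all genes, 4618 were called in cysteine-free and 13372 in excess medium. The libraries held between 34836014 and 61654861 reads on genes, and the members with the lowest counts, OAS1, MX1 and IFIT2, carry the largest counting error. The cells showed 8 of 8 markers of the line, such as VIM and KRT18, above the filter. Of these, 2 were called higher and 1 lower in cysteine-free medium, beside 7.39% and 8.51% of all genes. In excess cysteine 3 were called higher and 1 lower, beside 23.1% and 22.9% of all genes. Of 8 immune cell markers, PTPRC, CD3E, LILRA4 and MS4A1 did not pass the filter, with CD3E at 0 in all 10 libraries. The other 4 were called in neither medium. The summed level of the 8 ranged from 207 to 224 in cysteine-free, 164 to 222 in complete and 198 to 227 in excess libraries. CD68 had the most reads of the 8 over all libraries, 1573, against 210 for CD14. Of the CD68 exon bases, 81.6% are shared with an unnamed gene on the same strand, whose mean was 44258 in complete medium. The part of this overlap in the sum was not tested. Scaling each library to the same total moved the median of all genes in excess cysteine from 0.01 to 0.12 on the log2 scale, and the share of called genes that were higher from 50.3% to 61.8%. IFIT1 remained lower and ISG15 higher under that scaling.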

How the data were processed

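Poly(A) RNA of HEK293T cells was sequenced from 10 libraries, grouped by the cysteine level in their labels. According to the methods and the processing notes, the authors aligned reads with STAR 2.7.10b to GRCh38, counted them on Ensembl genes (the labels name HTSeq and the methods featureCounts) and divided them by DESeq2 size factors. The deposited signal is thus a size-factor-scaled gene count, and 100.0% of values in each library came out as whole reads (tolerance 0.001). The methods state that reads on several genes were dropped, yet genes of overlapping exons appear to share reads in the deposited values, and the conflict was not settled, which bears on the overlaps given for members. Between 60.8% and 66.4% of counts from 1 to 10 were even, as if both mates were counted. Replicates differed by more than sampling noise (chi-square per degree of freedom from 3.33 to 13.1).

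Log2(value + 1) was fitted with limma 3.58.1 (lmFit, eBayes with trend, 2-sided) in R 4.3.3 on the groups compared, for 29045 genes with 10 or more in at least 3 libraries. Genes were called at a Benjamini-Hochberg adjusted p of 0.01 or less. Mitochondrial shares were compared by exact permutation. Alternatives were edgeR 4.0.16 and DESeq2 1.42.0 on recovered reads, other pseudocounts, filters and scalings, a joint fit, a replicate block and leaving out each library. The procedure was tested on simulated data. Of 78894 gene IDs, 61463 were in GENCODE 44.

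The members and lists were chosen with earlier results of these data known. Named genes were the 9 members, up to 5 genes per list with the largest called changes (higher group's mean at least 20), and RIGI, MAVS, EIF2AK2, IFNB1, CGAS, STING1, IRF3, STAT2, IRF9 and PNPT1. Some genes that this rule names are not reported here. Promoter windows came from RefSeq on GRCh38.p14. IFIT2 has no window shown.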

Additional observations from a re-analysis of the deposited data

Results flagged for a closer look

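In 3 of 21 groups of 4 libraries that were examined, 1 library lay apart from the rest by Dixon's criterion at the 95% level, where about 1 in 20 would by chance. IFIT2 stood at 3.399 normalized counts in excess replicate 4, against 13.66 in the nearest library. IFIT3 stood at 18.47 in excess replicate 2, against 43.65 in the nearest. OAS3 stood at 219.2 in excess replicate 4, against 247.7 in the nearest. No excess library was apart from its group by this criterion in the share of mitochondrial reads or in the summed member count.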

How the results depend on the processing

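IFIT1 and ISG15 kept their calls in excess cysteine under all 20 alternatives. Without the filter on low values 738 genes were called in cysteine-free medium, in place of 4618, and 8864 between excess and cysteine-free medium, in place of 13954. At an adjusted p of 0.05 the former was 7987. Leaving out 1 library gave 978 to 6300 genes in cysteine-free medium: 1198 and 978 without cysteine-free replicate 1 and 2, and 2968 and 2795 without complete replicate 1 and 2. Members called higher in cysteine-free medium numbered 0 without the filter and under quantile normalization, where OAS3 had adjusted p of 0.0577 and 0.0148 in limma, and 0 to 1 with 1 library left out. Members called lower in excess cysteine numbered 1 at equal totals and 2 to 3 with 1 library left out. IFIT2 lost its call without the filter (adjusted p = 0.0591), at equal totals (-1.22, 0.0151) and at equal totals over nuclear genes, a scaling chosen after seeing the data (-1.28, 0.0113), by limma. Between excess and cysteine-free medium, members called higher numbered 2 and lower 4 at an adjusted p of 0.05, and with 1 library left out 1 to 2 were higher and 1 to 2 lower.

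Replicate numbers did not pair the libraries: deviations of libraries with the same number correlated between -0.116 and 0.103 over 8 pairs. With the replicate block, 6532 genes were called in cysteine-free, 13392 in excess and 12393 between excess and cysteine-free medium, where 2 members were called higher, the second being IFIH1 (0.64, adjusted p = 9.5e-03, limma). ISG15 in cysteine-free medium was 0.0058 with the block.

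Some differences turned sign when 1 library was left out, none of them past the threshold on either side. In cysteine-free medium IFIT3 ranged from -0.38 to 0.15, ISG15 from -0.16 to 0.0033, RIGI from -0.22 to 0.17, CGAS from -0.41 to 0.20 and IRF3 from -0.13 to 0.024. In excess cysteine MX1 ranged from -0.11 to 0.56 and RIGI from -0.017 to 0.16. RIGI in cysteine-free medium was 0.0067 at equal totals over nuclear genes. The cause was not tested. Of the 17 named pathway genes called in cysteine-free medium, 16 lost the call when 1 library was left out, and 16 without the filter. In excess cysteine TBK1 and JAK1 were not called without the filter (adjusted p = 0.0105 and 0.0103, limma). The list counts over genes that pass the filter without the excess libraries were added after seeing the data. Depth limits OAS1, MX1, IFIT2 and the interferon genes.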
